A study of Danio rerio with 10 samples.

Results

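Microglia from the brains of solvent-treated adult zebrafish were compared with the other cells of the brain across all measured genes. The samples were chosen by their group label, less 1 control described below. They are control microglia samples 1 and 5 and other brain cell samples 2, 6 and 10, which makes 5 of the 10 samples of the series. All fish were 3 months old and carried Neuro:NTR-mCherry, which labels neurons and puts nitroreductase in them, together with mpeg1:GFP, a reporter whose promoter is active in macrophages and microglia. Control microglia were GFP-positive cells from brains of fish given DMSO, the solvent of the drug used in the rest of the series. Other brain cells were the GFP-negative cells, and the labels do not say what treatment their fish had received. Both were dissociated with trypsin on ice, passed over Percoll and sorted, and RNA was sequenced from low-input libraries. A gate on mpeg1 reporter fluorescence admits every cell type that uses this promoter, so it cannot by itself set microglia apart from other macrophages of the brain. A further control, sample 9, was left out because its deposited column is identical to that of a 24 h drug-treated sample, so control microglia had n = 2 and other brain cells n = 3. Nothing in the labels ties samples to individual fish, and p-values therefore cover only the spread between these samples, which may be technical.

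Microglia are the resident macrophages of the brain. In zebrafish an embryonic wave of them is later replaced by cells of adult blood formation. They depend on the receptor Csf1r and on the transcription factors Spi1 and Irf8, and in an uninjured brain survey their surroundings with moving processes, take up dead cells and debris and degrade them in lysosomes. The rest of the brain is a mixture that includes neurons, myelinating oligodendrocytes and radial glia, the astrocyte-like glia of fish. The ancestor of teleost fish underwent a whole-genome duplication, so many genes of mammals have a pair of zebrafish copies, named a and b.

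Totals of reads, recovered from the equal steps between the deposited values of a library, were 6900171 and 6897191 in control microglia 1 and 5 and 6185540, 8440776 and 10049275 in other brain cells 2, 6 and 10. Values are the authors' normalised signal, on which a gene with 0 reads reads 0.223 and 3 reads correspond to at most 0.687 in control microglia and 0.606 in other brain cells. Genes with more than 3 reads numbered 17944 and 18296 in control microglia and between 19999 and 20929 in other brain cells. The label was set beside 5 marker genes. Among named genes called higher, lgals3bpb, mpeg1.1, havcr1 and c1qb rank 1, 2, 3 and 10 by difference in this same comparison. The markers are therefore described here and are no independent check of the label. The promoter of mpeg1.1 drives the reporter used for sorting, so its level restates the sort. lgals3bpb, a secreted galectin-binding glycoprotein, read 12810 and 12446 in control microglia and 13.9, 26.5 and 12.2 in other brain cells. havcr1, a receptor of the TIM family that binds phosphatidylserine on dying cells, read 1714 and 1629 in control microglia and 1.75, 7.59 and 1.02 in other brain cells. c1qb, a chain of complement C1q, read 688 and 669 in control microglia and 2.01, 2.5 and 0.871 in other brain cells. irf8, the transcription factor named above, read 546 and 504 in control microglia and 5.07, 4.12 and 2.38 in other brain cells. All 5 markers were above every other brain cell library in both control libraries, and the ratio of group means was 484 for havcr1, 378 for c1qb and 136 for irf8.

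Of 21714 genes tested with limma on log2(value + 1), 3269 were called higher in control microglia, which is 15.1% of the genes tested, and 4379 were called lower, which is 20.2%, at a Benjamini-Hochberg adjusted p under 0.05. In every called gene the 2 control libraries lay on one side of all 3 other brain cell libraries. Some genes that were not called were separated in the same way, and the share over all genes tested is not given here. The separation therefore adds no support to the calls. With control sample 1 left out 1993 were higher and 1994 lower, and with control sample 5 left out 2041 and 2155, in fits where the single control library is assumed to vary like the other group. Differences are given below as control microglia minus other brain cells on this log2 scale, with their standard error (SE). In these bulk samples, fewer cells of a type and less RNA per cell cannot be told apart. The higher side had the longer tail: 401 genes were higher by more than 4 log2 units and 94 by more than 6, whereas 442 were lower by more than 4 and 1 by more than 6. The addition of 1 before the logarithm shortens both tails for genes near 0 reads. Genes called higher took 48.1% and 50.5% of all reads in control microglia and between 8.2% and 10% in other brain cells. Genes called lower took 2.48% and 2.38% of reads in control microglia and between 30.7% and 33.5% in other brain cells. The median difference over all genes tested was -0.14.

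**Figure D1:**
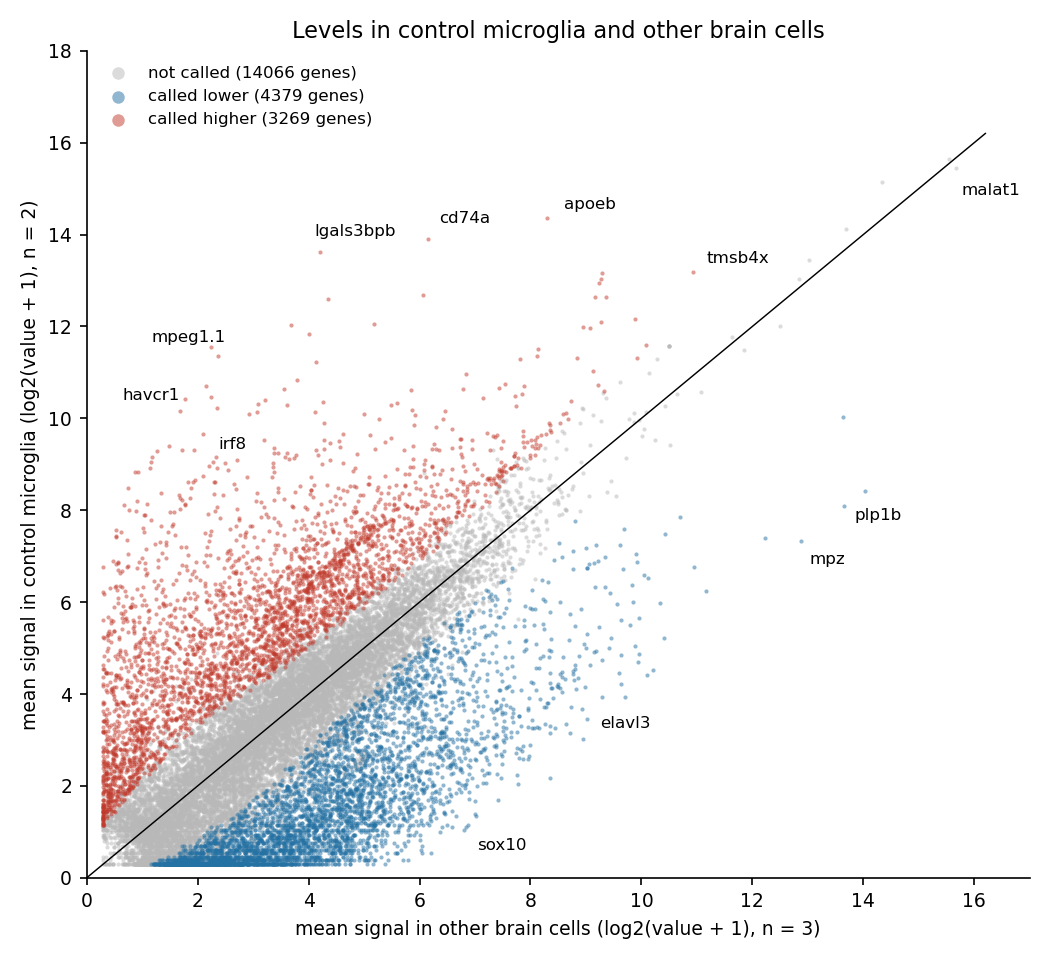
Each point is 1 of the 21714 genes tested, placed by its mean signal in the 3 other brain cell libraries (x axis, log2(value + 1)) and in the 2 control microglia libraries (y axis, same scale), red where called higher, blue where called lower and grey where not called, with the line of equality. The 3269 genes called higher reach farther from the line than the 4379 called lower, and malat1 lies on the grey diagonal.

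The transcripts that took the most reads in control microglia were partly shared with other brain cells. By share of reads, not corrected for transcript length, the leading genes were AC024175.4, malat1 and mt-co1, none of which was called. AC024175.4, named by a sequence accession, took 5.45% and 4.26% of reads. The nuclear non-coding RNA malat1 took 4.3% and 4.2%, and the mitochondrial mt-co1 took 3.76% and 3.05%. apoeb, an apolipoprotein that carries lipid between cells, took 1.83% and 2.15% of reads in control microglia and between 0.0179% and 0.0818% in other brain cells. cd74a, the chaperone of MHC class II molecules, took 1.48% and 1.4%, and lgals3bpb 1.2% and 1.19%. tmsb4x, which binds actin monomers, took 0.88% and 0.87% and was higher (adjusted p = 0.0165), a call that was lost when either control or other brain cell sample 2 was left out. mt-co2 and mt-co3, further mitochondrial genes, and the clone-named si:ch211-265g21.1 complete the 10 leading genes. si:ch211-265g21.1 read 6878 and 11443 in control microglia and 536, 413 and 934 in other brain cells. The clone-named si:ch211-184m19.3, chosen after its values were seen, read 6617 and 10161 in control microglia and 523, 406 and 932 in other brain cells. Some further clone-named genes with large read shares had values like those of these 2 genes in each group, and were also called higher. A division of reads between similar copies was not tested. The separate values of these 2 genes, and of the further ones like them, are uncertain.

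Beyond the 10 largest differences, the next 20 named genes called higher fell into a few recognisable kinds. Complement C1q was present with all 3 chains. c1qc read 592 and 674 in control microglia and 0.989, 5.2 and 0.655 in other brain cells, and c1qa read 251 and 250.2 in control microglia and 0.734, 1.2 and 0.655 in other brain cells. Antigen presentation was represented by cd74a and cd74b, 2 copies of the invariant chain, and by mhc2dab, an MHC class II gene. cd74a read 15818 and 14653 in control microglia and 89.8, 68.9 and 52.5 in other brain cells, a ratio of means of 216. cd74b read 4297 and 4199 in control microglia and 51, 39.4 and 15.3 in other brain cells. Neither copy overlapped between the groups, and both were even between the 2 control libraries. Sugar-binding and galectin-binding genes were lgals9l1 (difference 7.93 ± 0.44) and lgals3bpa (7.89 ± 0.34). Receptors were havcr2, known in mammals as the inhibitory receptor TIM-3, the chemerin receptor cmklr1, tlr1, the chemokine receptors ccr12a and cxcr3.2, and the adhesion molecule pecam1. havcr2 read 352 and 359.9 in control microglia and 0.351, 0.981 and 0.727 in other brain cells. Secreted products were f13a1a.1, the catalytic chain of coagulation factor XIII, grna, a progranulin, and the chemokine cxcl11.6. f13a1a.1 read 830.2 and 307 in control microglia and 0.606, 2.6 and 0.583 in other brain cells, and grna read 1173 and 1091 in control microglia and 6.35, 5.42 and 10.4 in other brain cells. The enzyme ch25h, which makes 25-hydroxycholesterol, read 615 and 292 in control microglia and 1.75, 0.44 and 0.511 in other brain cells, so ch25h and f13a1a.1 were both higher in control sample 1 than in control sample 5, and neither came near the other group. The remaining 3 were the organic anion transporter slco2b1, the G protein regulator rgs2 and the connexin cx32.2. All 20 had adjusted p values of 0.000286 or less in limma.

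Receptors for chemical signals came next. Of 59 tested receptors for chemoattractants, lipids and metabolites, 22 (37.3%) were called higher and 9 (15.3%) lower, with a median difference of 0.67. The shares over all genes tested were 15.1% and 20.2%. 15 were higher and 4 lower with control sample 1 left out and 17 and 4 with control sample 5 left out. cmklr1 led them and read 849.9 and 763 in control microglia and 3.03, 4.99 and 1.81 in other brain cells. ptgir, the receptor for prostacyclin, read 33.6 and 36.9 in control microglia and 0.351, 0.223 and 0.367 in other brain cells. gpr174, which in mammals senses lysophosphatidylserine, read 40.6 and 42.8 in control microglia and 1.37, 0.981 and 0.799 in other brain cells, and the acid-sensing gpr65 read 57.2 and 44.4 in control microglia and 0.734, 3.47 and 1.23 in other brain cells. These 4 stayed at or under 4.99 in other brain cells. Receptors for lysophosphatidic acid and sphingosine-1-phosphate lay on the other side. lpar1 read 0.687 and 4.64 in control microglia and 124, 158 and 68.6 in other brain cells, s1pr1 read 9.19 and 13.5 in control microglia and 181, 102 and 93.1 in other brain cells, and s1pr5a read 0.378 and 1.29 in control microglia and 16.7, 14.7 and 10.2 in other brain cells. The cannabinoid receptor cnr1, at 79.6 and 95.8 against 68.1, 99 and 88.9, was not called (0.05 ± 0.32, adjusted p = 0.924). gpr84, a receptor for medium-chain fatty acids, read 2.85 and 28.7 in control microglia and 1.37, 1.52 and 0.943 in other brain cells and missed the threshold (adjusted p = 0.052), its 2 control libraries differing by more than their gap to the other group.

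Among the 14 chemokine receptors tested, 9 (64.3%) were called higher and 1 (7.1%) lower, against 15.1% and 20.2% over all genes tested. ccr12a read 245 and 316 in control microglia and 1.63, 0.44 and 1.3 in other brain cells, cxcr3.2 read 360.1 and 420.3 in control microglia and 2.52, 4.45 and 0.727 in other brain cells, and xcr1a.1 read 20.2 and 16.1 in control microglia and 1.5, 0.223 and 0.223 in other brain cells. ccr9a was high in both groups and higher in control microglia, at 576 and 401 against 66.9, 72.5 and 29.1 (3.18 ± 0.44, adjusted p = 0.000841). The receptor lower in control microglia was ccr7, which in mammals guides dendritic cells and T cells to lymphoid tissue. It read 1.92 and 0.68 in control microglia and 21.9, 25.1 and 27.7 in other brain cells. ccr10 had 114 and 126 against 107, 111 and 74 and was not called. Toll-like receptors had the highest share of the families described: 19 of 21 (90.5%) were called higher and 0 lower, with a median difference of 2.25. tlr1, which recognises bacterial lipopeptides, read 262 and 291 in control microglia and 0.606, 0.548 and 0.655 in other brain cells. tlr3, the sensor of double-stranded RNA, read 159 and 124 in control microglia and 1.37, 0.223 and 1.66 in other brain cells. The nucleic acid sensors tlr21 and tlr8b read 73.9 and 72.7 against 0.223, 0.223 and 0.223 and 77.9 and 78.6 against 0.478, 0.331 and 0.223. All 4 stayed at or under 1.66 in other brain cells. The 2 members not called were the fish gene tlr18, at 1.46 and 1.44 against 2.52, 1.63 and 2.1, and tlr20.1, at 3.78 and 1.14 against 0.223, 1.2 and 0.223.

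**Figure D2:**
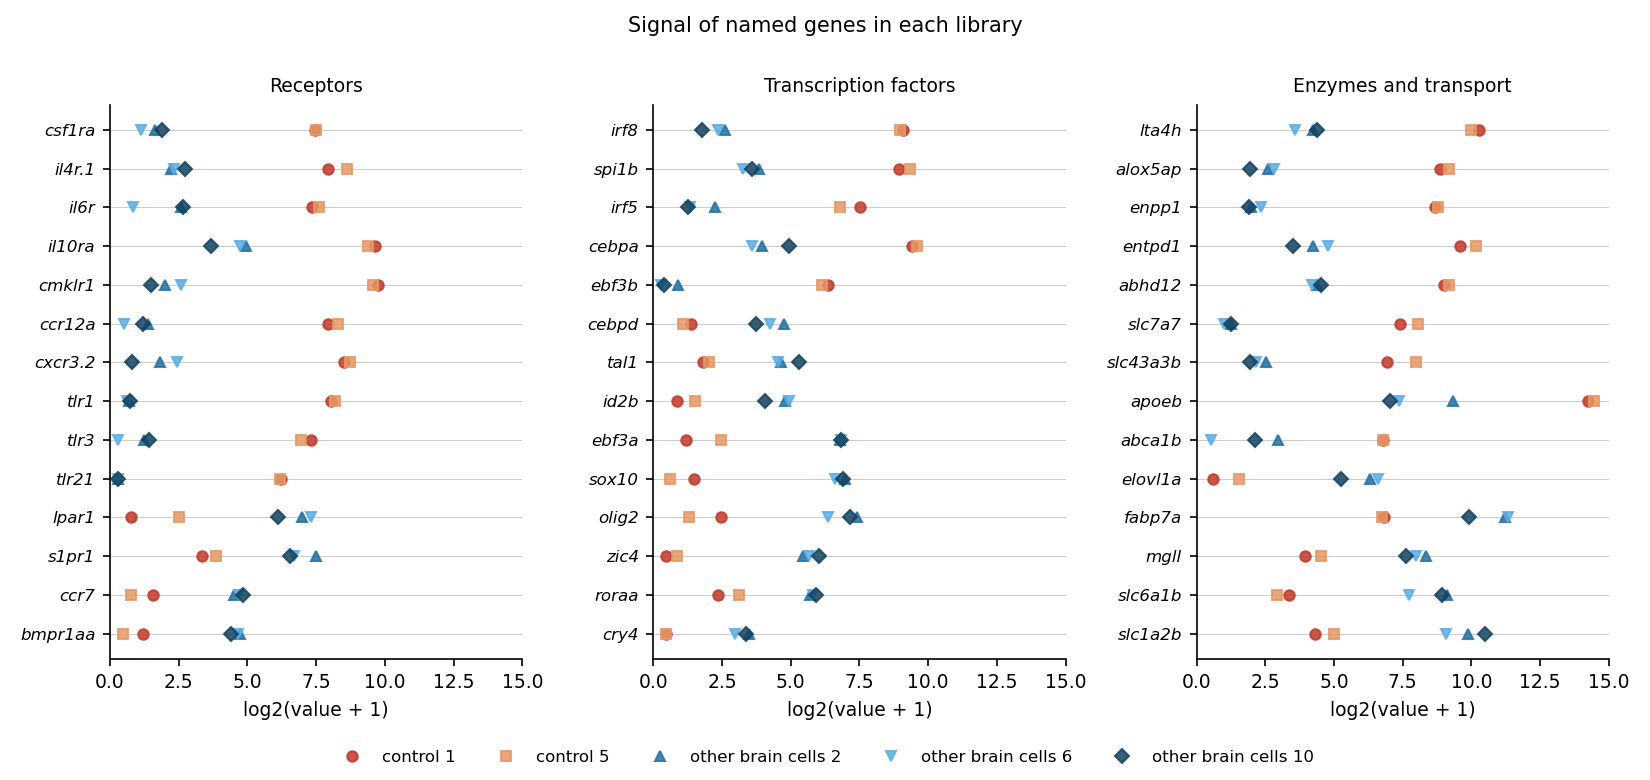
Signal of 42 named genes in each of the 5 libraries (x axes, log2(value + 1)), with 1 row per gene, in panels of receptors, transcription factors, and enzymes with transport proteins. Red and orange symbols are control microglia 1 and 5 and blue symbols are other brain cells 2, 6 and 10. Control microglia lie to the right for genes called higher such as cmklr1 and to the left for genes called lower such as lpar1. The 2 groups are separated in every row, which restates the calls, because all called genes are separated.

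Nucleic acid sensing reached beyond the Toll-like receptors. Of 45 tested members, 26 (57.8%) were called higher and 1 (2.2%) lower (median difference 1.49). The shares over all genes tested were 15.1% and 20.2%. 17 were higher and 0 lower with control sample 1 left out. unc93b1, which delivers nucleic acid sensing Toll-like receptors to endosomes, read 88.6 and 61.7 in control microglia and 0.734, 0.331 and 0.799 in other brain cells. The kinase map3k7, at 18.9 and 31 against 40.0, 42.7 and 37, the double-stranded RNA and Z-DNA dependent kinase gene pkz, at 35.1 and 35.1 against 20.4, 23.9 and 16.1, and the autophagy receptor optn, at 26.2 and 33.3 against 17.2, 19.3 and 18.8, were not called. The single lower call, sarm1, was lost without control sample 1. In the inflammasome and cell death list 30 of 54 members (55.6%) were called higher and 2 (3.7%) lower. 17 were higher and 1 lower with control sample 1 left out and 19 and 2 with control sample 5 left out. The caspase caspb, which in zebrafish matures interleukin 1, read 206 and 385 in control microglia and 3.67, 2.71 and 0.439 in other brain cells, and its relative caspbl read 64.7 and 98.1 in control microglia and 2.14, 1.52 and 0.655 in other brain cells. pmaip1, the pro-apoptotic protein Noxa, read 385 and 203 in control microglia and 7.24, 10.4 and 4.18 in other brain cells. Both caspases were higher in control sample 5 than in control sample 1, and neither overlapped the other group. bcl2b, an anti-apoptotic gene, was lower, at 4.7 and 4.18 against 84.5, 129.9 and 67.3 (-4.07 ± 0.37, adjusted p = 0.000157). The executioner caspase casp3a was high in both groups and not called, at 138 and 133 against 79, 139 and 52.9. TRIM and fish-specific finTRIM proteins are ubiquitin ligases, many of which act in antiviral defence. Of 133 members, 78 (58.6%) were called higher and 10 (7.5%) lower (median difference 1.46). 46 were higher and 4 lower with control sample 1 left out and 52 and 4 with control sample 5 left out. The largest differences were those of ftr56, at 90.5 and 62.2 against 4.05, 5.64 and 2.46, and of trim35-33 and trim35-20. A division of reads between the like-named trim35-33 and trim35-20 was not tested, and their separate values are uncertain. trim9 and trim37 had at most 2 reads in each control library and read 0.223 and 0.375 against 34.6, 25.6 and 103 and 0.223 and 0.527 against 35.1, 27.5 and 52.6.

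Cytokine and growth factor receptors were divided. Of 104 tested, 27 (26%) were called higher and 31 (29.8%) lower, against 15.1% and 20.2% over all genes tested. 19 were higher and 14 lower with control sample 1 left out and 20 and 16 with control sample 5 left out. The higher ones were led by haematopoietic receptors: csf1ra, the receptor for the microglial survival factors Csf1 and Il34, il4r.1, il6r and il10ra. il4r.1, the interleukin 4 receptor, read 246 and 394 in control microglia and 3.67, 4.01 and 5.7 in other brain cells. il6r read 161 and 192 in control microglia and 4.95, 0.764 and 5.26 in other brain cells, and il10ra, the receptor of the anti-inflammatory interleukin 10, read 795 and 668 in control microglia and 30.1, 25.5 and 11.9 in other brain cells. The signalling partner of il6r, il6st (the shared chain gp130), was not called, at 46.6 and 71 against 64, 63.1 and 49.5 (difference -0.02 ± 0.33). The lower ones were led by receptors of development and neural growth. bmpr1aa, a bone morphogenetic protein receptor, read 1.3 and 0.375 in control microglia and 25.5, 24.4 and 20.0 in other brain cells. erbb3b, the neuregulin receptor of myelinating glia, read 0.223 and 0.375 in control microglia and 15.9, 7.48 and 27.9 in other brain cells, and the neurotrophin receptor ntrk3b read 0.841 and 2.35 in control microglia and 26.3, 27.2 and 36.5 in other brain cells. egfra was not called, at 136 and 107 against 118, 165 and 118. The list of growth factors and cytokine ligands was divided in the same way, with 22 of 95 (23.2%) called higher and 28 (29.5%) lower. 16 were higher and 11 lower with control sample 1 left out and 15 and 11 with control sample 5 left out. tnfsf12, known as TWEAK, read 440.3 and 347 in control microglia and 1.63, 3.25 and 3.46 in other brain cells. tnfb, a tumour necrosis factor gene, read 622 and 290.5 in control microglia and 13.9, 6.07 and 8.22 in other brain cells. fgf12b, gdf10a and ptn (pleiotrophin), and the angiogenic vegfab, were the lower members of the list with the largest differences. Whether each acts as a secreted ligand was not tested. fgf12b read 0.687 and 0.832 in control microglia and 53.3, 61.7 and 75.2 in other brain cells, and vegfab read 0.223 and 2.2 in control microglia and 38.3, 50.2 and 38.7 in other brain cells. il34, which encodes a ligand of Csf1r, was not called, at 18.9 and 22.6 against 13.4, 22.2 and 7.06.

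Leukocyte receptor signalling had 36 of 69 tested members (52.2%) called higher and 12 (17.4%) lower, with a median difference of 1.15. The shares over all genes tested were 15.1% and 20.2%. 25 were higher and 5 lower with control sample 1 left out, 23 and 4 with control sample 5 left out, and 28 and 5 with other brain cell sample 2 left out. fcer1gl, the adaptor chain of activating Fc receptors, read 1385 and 1245 in control microglia and 21, 25.6 and 8 in other brain cells. card9, the adaptor of fungal sensing, read 101 and 122 in control microglia and 1.75, 2.06 and 3.03 in other brain cells. The Src family kinase lyn read 501 and 666 in control microglia and 15.2, 21.2 and 14.6 in other brain cells, and its relative fyna was reversed, at 3.62 and 4.48 against 81.9, 101 and 132 (-4.37 ± 0.35, adjusted p = 9.2e-05). inpp5d, the phosphatase SHIP1, read 297 and 329 in control microglia and 22.1, 5.42 and 20.4 in other brain cells. Widely used members were not called, such as grb2b, at 113 and 122 against 76, 73.6 and 66.3, and ptpn11a, at 61.6 and 64.8 against 34, 32.5 and 37.9.

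Among 36 tetraspanins, small membrane proteins that organise other receptors, 5 (13.9%) were called higher and 15 (41.7%) lower. The first share was near the 15.1% over all genes tested, and the second was above the 20.2%. 5 were higher and 9 lower with control sample 1 left out. tspan36 read 524 and 571 in control microglia and 5.2, 8.67 and 2.82 in other brain cells, and the leukocyte tetraspanin CD53 read 1439 and 1726 in control microglia and 113, 145 and 67.2 in other brain cells. cd9b, tspan7b and tspan2a were lower, and tspan2a, a tetraspanin of myelin, read 71.8 and 52.4 in control microglia and 1266, 1391 and 1215 in other brain cells. Adhesion molecules as a list were mainly lower, with 14 of 87 (16.1%) called higher, near the background share, and 47 (54%) lower (median difference -2.25). 11 were higher and 31 lower with control sample 5 left out. The higher members were leukocyte integrins and the immunoglobulin-family molecules pecam1 and mcamb. The pair itgae.2 and itgb7, whose mammalian proteins form a receptor for E-cadherin, read 377 and 372 against 14, 20.4 and 14.3 and 279.6 and 267 against 10.1, 15.6 and 10.3. itgb2, the common beta chain of leukocyte integrins, read 472 and 720.5 in control microglia and 30.5, 18 and 36.8 in other brain cells, and itgam, the alpha chain of complement receptor 3, read 45.3 and 51.2 in control microglia and 1.24, 1.52 and 2.02 in other brain cells. itgb5, part of a vitronectin receptor, was not called, at 31.7 and 36.3 against 44.1, 23.3 and 27.6. Of 17 cathepsins, the lysosomal proteases, 10 (58.8%) were called higher and 1 (5.9%) lower. ctssb.2 read 410.2 and 308 in control microglia and 3.29, 3.9 and 0.871 in other brain cells, and ctsc read 443 and 738 in control microglia and 11.8, 14.5 and 11.7 in other brain cells. ctsd, at 242 and 866 against 193, 182 and 127, differed more between its 2 control libraries than between the lower of them and the other group, and was not called (adjusted p = 0.0598). ctsf was the lower member, at 54.3 and 50.1 against 459.7, 407 and 387.

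Transcription factors of blood cells and of neural cells lay on opposite sides. Of 85 factors known from macrophages and other blood cells, 36 (42.4%) were called higher and 6 (7.1%) lower (median difference 0.86). The shares over all genes tested were 15.1% and 20.2%. 20 were higher and 3 lower with control sample 1 left out and 22 and 3 with control sample 5 left out. irf5 read 182 and 109 in control microglia and 3.8, 1.52 and 1.38 in other brain cells, and cebpa, a regulator of myeloid differentiation, read 687 and 778 in control microglia and 14.6, 11.2 and 29.4 in other brain cells. Its relative cebpd went the other way, at 1.61 and 1.14 against 26.3, 17.9 and 12.4 (-3.01 ± 0.46, adjusted p = 0.00128), as did the differentiation inhibitor id2b, at 0.841 and 1.9 against 26.6, 29.9 and 15.9, whereas its copy id2a was high in all 5 libraries, at 271 and 300.2 against 233, 313 and 134. tal1, a regulator of blood stem cells, read 2.54 and 3.12 in control microglia and 24.1, 22.3 and 38.5 in other brain cells. hif1ab, the hypoxia factor, was not called, at 96.6 and 106 against 94.6, 91.5 and 201. Of 95 factors known from neurons and glia, 0 were called higher and 79 (83.2%) lower, with a median difference of -2.98. olig2, the regulator of oligodendrocyte precursors, read 4.55 and 1.44 in control microglia and 168, 81.2 and 141 in other brain cells, and zic4 read 0.378 and 0.832 in control microglia and 43, 49.3 and 64.2 in other brain cells. sox8a and bcl11aa were not called, and sox8a read 28.3 and 30.4 against 32.4, 25.7 and 33.2. zic1 was less even among the controls, at 0.378 and 11.6 against 85.4, 179 and 409. Circadian clock genes had 8 of 49 (16.3%) called higher, near the background share, and 7 (14.3%) lower, below it. 1 was higher and 6 lower with control sample 1 left out, 2 and 4 with control sample 5 left out, and 5 and 4 with other brain cell sample 2 left out. The clock regulators roraa and cry4 were lower, at 4.09 and 7.68 against 50.5, 54.6 and 59.6 and 0.378 and 0.375 against 10.3, 6.83 and 9.37. The 4 higher members with the largest differences, nr1d1, cry5, nfil3-6 and tefa, each lost the call without control sample 1, and bhlhe41, nr1d2b and csnk1db were not called.

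**Figure D3:**
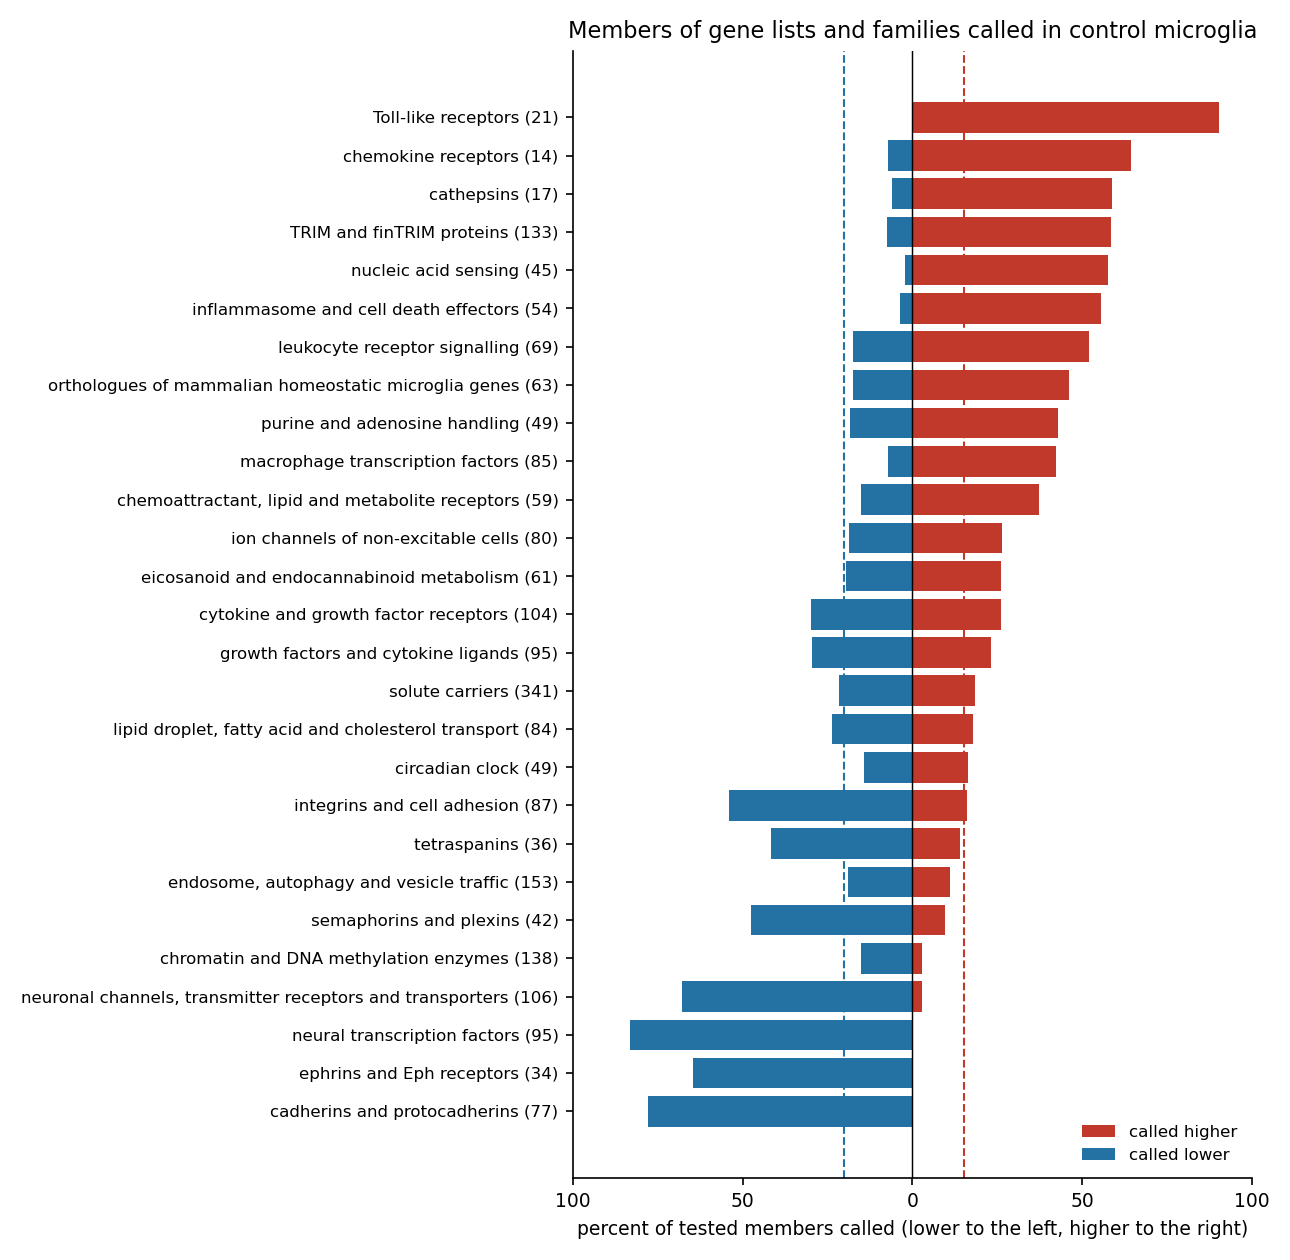
Percent of the tested members of 27 gene lists and families called higher (red, to the right) and lower (blue, to the left) in control microglia, with the number tested in parentheses after each name and dashed lines at the shares over all genes tested, 15.1% higher and 20.2% lower. Toll-like receptors, chemokine receptors and cathepsins stand at the top, and neural transcription factors, ephrins with Eph receptors, and cadherins have red bars of length 0.

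In the list of eicosanoid and endocannabinoid enzymes 16 of 61 members (26.2%) were called higher and 12 (19.7%) lower, the second share being near the 20.2% over all genes tested. lta4h, which completes the synthesis of leukotriene B4, read 1257 and 1010 in control microglia and 18.1, 10.9 and 20.0 in other brain cells. alox5ap, the partner of 5-lipoxygenase in leukotriene synthesis, read 465 and 585 in control microglia and 5.07, 6.07 and 2.82 in other brain cells. alox12, a lipoxygenase, read 236 and 228 in control microglia and 7.88, 12.9 and 5.12 in other brain cells, and abhd12, a hydrolase of lysophosphatidylserine and of the endocannabinoid 2-arachidonoylglycerol, read 507 and 577 in control microglia and 20.1, 17.4 and 22.2 in other brain cells. The lower members were fatty acid elongases and a desaturase. elovl1a read 0.532 and 1.9 in control microglia and 78.1, 97.5 and 37 in other brain cells, elovl6 read 5.94 and 2.96 in control microglia and 109, 101 and 67.2 in other brain cells, and fads2 read 3 and 7.53 in control microglia and 74.8, 96.7 and 74.7 in other brain cells. elovl1b, the copy of elovl1a, was not called, at 269.7 and 305 against 378, 423 and 284. In the list of lipid droplet, fatty acid and cholesterol transport, 15 of 84 (17.9%) were called higher and 20 (23.8%) lower, near the 15.1% and 20.2% over all genes tested. 9 were higher and 11 lower with control sample 1 left out and 8 and 14 with control sample 5 left out. The higher ones included the fatty acid binding protein fabp11a, at 186 and 351 against 8.65, 12 and 3.82, and abca1b, an exporter of cholesterol to apolipoproteins, at 109.6 and 109 against 6.73, 0.44 and 3.39. The lower ones included fabp7a, the fatty acid binding protein of radial glia, which read 111 and 106 in control microglia and 2400, 2574 and 954 in other brain cells, the lipoprotein receptor vldlr, at 5.48 and 2.2 against 62, 42.8 and 108, and mgll, the main hydrolase of 2-arachidonoylglycerol in mammalian brain, at 14.4 and 21.8 against 326, 252 and 195. npc1, which moves cholesterol out of lysosomes, was not called, at 102 and 115 against 61.9, 56.6 and 71.2.

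The list of purine and adenosine handling holds ectoenzymes, receptors and intracellular enzymes. Of its 49 tested members, 21 (42.9%) were called higher and 9 (18.4%) lower, against 15.1% and 20.2% over all genes tested (median difference 1.17). 15 were higher and 2 lower with control sample 1 left out, 15 and 4 with control sample 5 left out, and 19 and 5 with other brain cell sample 2 left out. enpp1, an ectoenzyme that cleaves ATP and cyclic dinucleotides, read 409 and 444 in control microglia and 2.9, 4.12 and 2.74 in other brain cells, a ratio of means of 131. entpd1, the ectoenzyme CD39, read 773 and 1140 in control microglia and 17.7, 26.6 and 10.5 in other brain cells. entpd2a.1 read 51.4 and 252 in control microglia and 2.39, 1.31 and 1.38 in other brain cells, so its level in control sample 5 was several times that in control sample 1. The nucleotide receptor p2ry11 read 46.7 and 33.4 in control microglia and 1.12, 2.17 and 1.81 in other brain cells. pnp6, a purine nucleoside phosphorylase, and ak5, an adenylate kinase of neurons, were lower, with ak5 at 5.63 and 3.72 against 38, 34.2 and 63.1. hprt1, the salvage enzyme, was not called, at 76.1 and 95.4 against 44.1, 78.2 and 36.1. Ion channels outside the excitable cell types had 21 of 80 (26.25%) called higher and 15 (18.75%) lower, the second share being near the background. 16 were higher and 7 lower with control sample 1 left out and 15 and 8 with control sample 5 left out. Both copies of the ATP-gated channel p2rx3, known in mammals from sensory neurons, were higher: p2rx3a read 34.1 and 62 in control microglia and 0.223, 0.223 and 0.223 in other brain cells, and p2rx3b read 48.9 and 73.6 in control microglia and 0.734, 0.656 and 0.871 in other brain cells. clic5b read 80.7 and 77.2 in control microglia and 1.5, 0.223 and 1.38 in other brain cells. trpc1 and panx1b, a channel that releases ATP, had 0 reads in both control libraries and read 0.223 and 0.223 against 18.3, 20.8 and 57 and 0.223 and 0.223 against 11.8, 20.7 and 9.94. The water channel aqp1a.1 was lower as well, at 4.09 and 1.44 against 58.4, 45.3 and 34.2. Lysosomal channels mcoln1a and tpcn1 were not called, and tpcn1 read 41.9 and 46.3 against 75.8, 123 and 59.9.

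Solute carriers as a whole stayed near the background of 15.1% higher and 20.2% lower, with 63 of 341 (18.5%) called higher and 74 (21.7%) lower. 29 were higher and 35 lower with control sample 1 left out, 27 and 36 with control sample 5 left out, and 41 and 56 with other brain cell sample 2 left out. The highest were amino acid carriers and their relatives: slc7a7, slc43a3b and slc43a2b. slc43a3b read 122 and 252 in control microglia and 4.82, 3.47 and 2.82 in other brain cells, and slc43a2b read 44.1 and 93.8 in control microglia and 1.63, 4.99 and 2.31 in other brain cells. SLC46A2 read 24.6 and 37.2 against 0.351, 1.2 and 0.943. In all 3 the level in control microglia 5 exceeded that in control microglia 1, and neither control came near the other group. The lowest were transporters of neurotransmitters and ions. The GABA transporter slc6a1b read 9.19 and 6.62 in control microglia and 558, 213 and 490.4 in other brain cells, the glutamate transporter slc1a2b read 18.6 and 31.1 in control microglia and 935, 544 and 1445 in other brain cells, and the bicarbonate transporter slc4a4a read 8.1 and 9.05 in control microglia and 320.1, 157 and 305 in other brain cells. The amino acid carrier slc38a2 was high in all 5 libraries and not called, at 669.8 and 382 against 418, 597 and 432.

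Zebrafish copies of genes used as homeostatic microglia markers in mammals were called higher in 29 of 63 cases (46%) and lower in 11 (17.5%). The background was 15.1% and 20.2%, so the second share was near it, and the median difference was 0.89. 26 were higher and 5 lower with control sample 1 left out and 26 and 4 with control sample 5 left out. C1q chains and slco2b1 led the higher members, and slco2b1 read 1704 and 1494 in control microglia and 25, 6.18 and 1.3 in other brain cells. fscn1a and serpine2 were lower, with fscn1a at 1.77 and 6.92 against 93.9, 79.6 and 184, and so was sall1a, one of the copies of the mammalian microglial factor Sall1, at 2.39 and 1.29 against 42.7, 14.9 and 26.8. The following were chosen after their values were seen. Both sall1 copies were lower, with sall1b at 6.09 and 3.27 against 35.3, 41.8 and 26.1, whereas the related sall3a read 258 and 247 in control microglia and 4.56, 1.52 and 5.91 in other brain cells. tmem119b, a copy of a widely used microglial surface marker of mammals, had at most 2 reads in each control library and read 0.532 and 0.223 against 2.27, 1.09 and 2.1 (adjusted p = 0.0582). p2ry13 and olfml3a had 0 reads in both control libraries and calls that were lost without either control library. hexb, the lysosomal enzyme used to mark microglia in mice, read 147 and 197 in control microglia and 39.2, 31.1 and 39.2 in other brain cells (adjusted p = 0.000936). cst3 and cd81a, abundant in mammalian microglia, were not called: cst3 read 441 and 450.3 against 566, 653 and 259.8, and cd81a read 1002 and 989 against 876, 1336 and 783.

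On the lower side the next 20 named genes beyond the 10 largest differences included genes of myelinating glia and of neurons. mpz, the myelin protein zero, read 184 and 135 in control microglia and 7549, 7439 and 7495 in other brain cells, and plp1b, the myelin proteolipid protein, read 329 and 211 in control microglia and 14334, 16263 and 7902 in other brain cells. mag, the myelin-associated glycoprotein, read 5.32 and 2.05 in control microglia and 155, 129 and 362 in other brain cells, and nfasca, a neurofascin of axon and glial contacts, read 18.9 and 4.64 in control microglia and 556, 540.2 and 369 in other brain cells. mpz and plp1b kept levels of at least 135 and 211 in control microglia, and the groups did not overlap in any of the 4. elavl3, the neuronal RNA-binding protein HuC, read 12.6 and 7.38 in control microglia and 419.7, 323 and 806 in other brain cells. Endophilin sh3gl2 was uneven in the controls, at 0.841 and 16.5 against 169.9, 383 and 278, and so was tmeff1b, at 0.532 and 5.85 against 113, 148 and 159. The enzymes pla1a, a phospholipase, htra1a, a secreted serine protease, and cyp4t8, a cytochrome P450, had differences of -5.33, -5.40 and -5.39. slc25a48, tlcd1, zic1, cnksr2b, slc6a1b, luzp2, rnd1l, clip3, MYO1D and cdc42bpb complete the 20, with differences between -5.52 and -5.32.

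Families of neural cell recognition had more members called lower than higher. The shares over all genes tested were 15.1% higher and 20.2% lower. Of 77 cadherins and protocadherins, 0 were called higher and 60 (77.9%) lower, and of 34 ephrins and Eph receptors 0 and 22 (64.7%). Of the cadherins and protocadherins, 0 were higher and 36 lower with control sample 1 left out and 0 and 34 with control sample 5 left out. For ephrins and Eph receptors, 15 were lower with control sample 1 left out and 11 with control sample 5 left out. cdh8 read 3 and 0.832 in control microglia and 54.1, 61.2 and 84.5 in other brain cells, epha4a read 0.532 and 0.375 in control microglia and 29.2, 33.9 and 74.5 in other brain cells, and efnb2a read 1.3 and 2.35 in control microglia and 23.8, 41.6 and 56.1 in other brain cells. ephb2a and PCDH20 were not called, and PCDH20 read 24.3 and 27 against 22.1, 24.5 and 25.4. Among 42 semaphorins and plexins, 4 (9.5%) were called higher, a share below that of all genes tested, and 20 (47.6%) lower. 3 were higher and 9 lower with control sample 1 left out and 3 and 11 with control sample 5 left out. plxnc1, a semaphorin receptor of leukocytes and neurons, read 578 and 713 in control microglia and 15.3, 24.8 and 15.4 in other brain cells. Both copies of sema4a were higher, with sema4ab at 267 and 318 against 17.2, 16.8 and 26.1 and sema4aa at 86 and 92.3 against 11.7, 6.5 and 8.07. sema5a and sema6dl, guidance molecules of axons, were lower, with sema6dl at 1.15 and 0.832 against 39.8, 23.8 and 53.2. Channels, receptors and transporters of neurons had 3 of 106 members (2.8%) higher and 72 (67.9%) lower. 3 were higher and 37 lower with control sample 1 left out and 3 and 43 with control sample 5 left out. The higher ones were scn4bb, a beta subunit of sodium channels, which read 92.6 and 98.4 in control microglia and 0.734, 1.52 and 1.02 in other brain cells, the glutamate receptor subunit GRIN3A, at 28.8 and 24.4 against 2.01, 0.331 and 2.89, and the glutamate transporter slc1a3a, at 148 and 134 against 45, 41.5 and 29.8. Each of the 3 kept its call without each library in turn. grin1a, the obligatory NMDA receptor subunit, read 2.39 and 4.03 in control microglia and 108, 117 and 213 in other brain cells, and the sodium channel scn8aa read 0.996 and 2.05 in control microglia and 48.2, 37.7 and 129.8 in other brain cells.

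Genes at the detection floor of either group were listed separately. Of 21714 genes tested, 242 were called higher with at most 3 reads in every other brain cell library. On the lower side, 1361 were called with at most 3 reads in both control libraries. A level of 3 reads lies under the filter value of 1, so these genes passed the filter only through libraries outside the group at its floor. They are therefore described here and are no independent evidence of a difference. The first condition spans 3 libraries and the second 2, at unlike depths, so the counts are not comparable. The highest of the first kind were the CXCL11-like chemokine genes CXCL11 (7 of 7) and cxcl11.7, marco, siglec15l, DLK1, tlr8b, tlr21, gna15.4, CD93 and si:ch211-165i18.2. A division of reads between the like-named CXCL11 (7 of 7) and cxcl11.7 was not tested, and their separate values are uncertain. siglec15l, a sialic acid binding receptor of the Siglec family, held 1403 reads over the control libraries and 0 in other brain cells, at least 178-fold higher when each other brain cell library is set at 3 reads. tlr21 held 953 reads and 0, at least 121-fold higher on the same basis. marco, a scavenger receptor of macrophages that binds bacteria and particles, read 81.3 and 154 in control microglia and 0.351, 0.548 and 0.295 in other brain cells. CD93, which in mammals marks endothelium and some myeloid cells, read 63.9 and 36.8 in control microglia and 0.478, 0.223 and 0.223 in other brain cells. gna15.4, a G protein alpha subunit, read 63.3 and 78.6 in control microglia and 0.223, 0.223 and 0.295 in other brain cells. The highest of the reverse kind were nlgn3a, cdc42bpb, si:dkey-145p14.5, trim9, NFASC (1 of 2), tmem179, spag9a, brinp2, epha4a and VOPP1 (1 of 2). nlgn3a, a postsynaptic adhesion molecule, read 0.378 and 0.527 in control microglia and 50.9, 62 and 104 in other brain cells, and brinp2, a gene of neurons, read 0.687 and 0.223 in control microglia and 28.3, 22.3 and 90.8 in other brain cells. spag9a was uneven among the other brain cell libraries, at 0.687 and 0.527 against 68, 13.2 and 60.4.

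Genes named as a and b copies were compared in their change. The pairs were taken by name, and their origin in the fish genome duplication was not tested. Of 1868 pairs named a and b in which both copies were tested, 684 differed between the copies in their change, which is 36.6% of pairs, by limma on the difference of the 2 log2 values with Benjamini-Hochberg adjustment over pairs. In 84 pairs the copies were called in opposite directions, and in 41 with control sample 1 left out, 32 with control sample 5 left out and 56 with other brain cell sample 2 left out. Both copies were called higher in 66 pairs and both lower in 347, and of the 359 pairs with any copy higher, 18.4% had both copies higher. Genes of such pairs were called higher in 11.4% and lower in 33.7% of cases, against 15.1% and 20.2% over all genes tested. Pairs of unrelated genes were not counted in this way, so whether copies differ more or less than such pairs was not tested. The transcription factor ebf3 had the widest opposite gap, 10.7 ± 0.63 (log2 ± SE). ebf3a read 1.3 and 4.48 in control microglia and 109.7, 112 and 113 in other brain cells, and ebf3b read 80.9 and 70.2 in control microglia and 0.861, 0.223 and 0.295 in other brain cells. The kinase pdk2, an inhibitor of pyruvate dehydrogenase, followed with pdk2a at 0.687 and 5.09 against 61.9, 59.1 and 47.4 and pdk2b at 96 and 150.5 against 10.6, 0.981 and 3.18. tmem136a read 4.4 and 6.46 against 203, 161 and 165 and tmem136b 45.3 and 34 against 2.27, 0.548 and 0.799. Adaptor gene samsn1 was higher as samsn1a, at 552 and 668 against 11.1, 13.3 and 5.34, and lower as samsn1b, at 2.08 and 1.44 against 23.3, 12.8 and 16.5. The bicarbonate transporter given above as lower, slc4a4a, had the higher copy slc4a4b, at 78.1 and 66.3 against 7.12, 3.9 and 4.26. The adhesion molecule mcam was split between mcama, at 3.62 and 10.6 against 64.9, 129 and 127, and mcamb, at 1143 and 1182 against 59.8, 80.0 and 32.8. The progestin receptor gene paqr7 and the LIM protein gene csrp1 completed the pairs in which each copy kept its call without each library, with csrp1a at 84 and 65.7 against 13.8, 15.1 and 15.4 and csrp1b at 6.09 and 4.18 against 285, 224 and 153. In scn4b and grap, which belong to the same 10, the lower copies scn4ba and grapb lost their calls without control sample 1 or control sample 5.

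**Figure D4:**
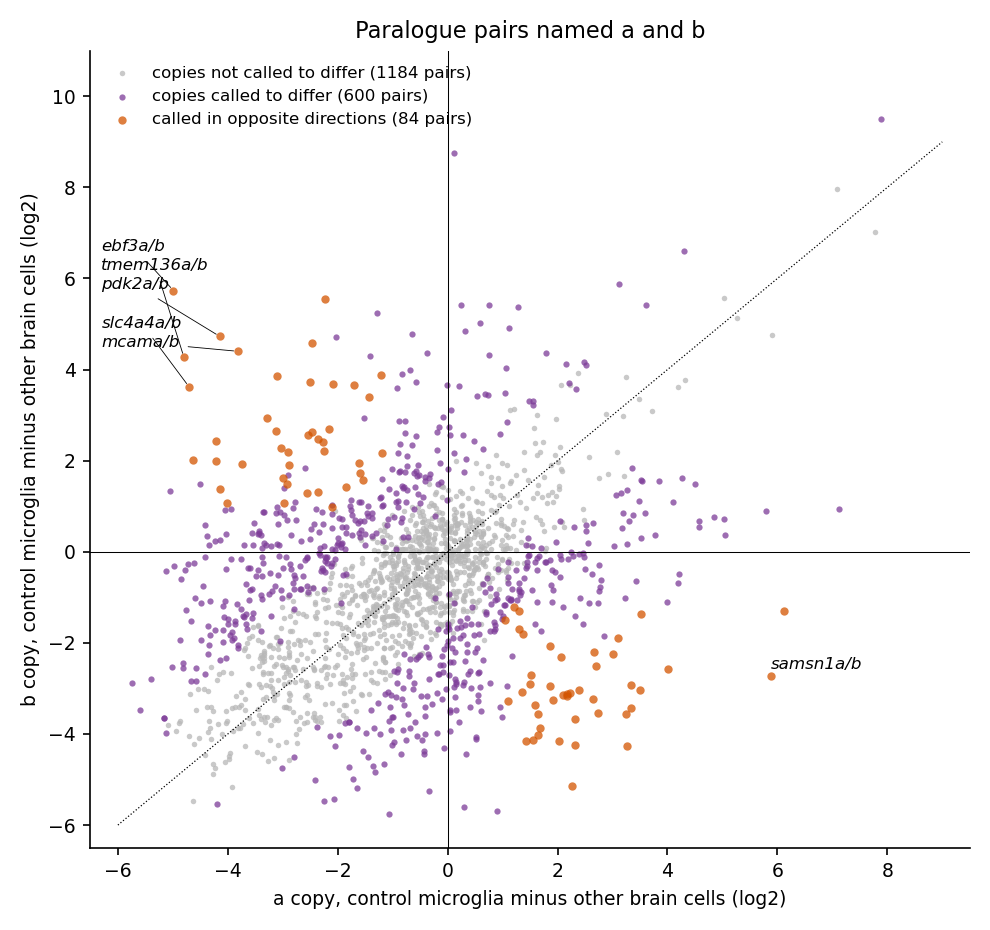
Each point is 1 of 1868 pairs of copies named a and b, placed by the difference between control microglia and other brain cells of the a copy (x axis, log2) and of the b copy (y axis, log2), in grey where the copies were not called to differ, purple where called to differ and orange for the 84 pairs called in opposite directions, with a dotted line of equal change. Orange points occupy the upper left and lower right quadrants, with ebf3 and pdk2 at the upper left and samsn1 at the lower right.

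The 5 most abundant genes that were not called were malat1, mt-co1, mt-co2, mt-co3 and mt-cyb. malat1 read 45864 and 44074 in control microglia and 58230, 59548 and 38679 in other brain cells, and mt-co1 read 40118 and 31991 in control microglia and 11725, 35423 and 14761 in other brain cells. Transcripts of genes whose names begin with mt- varied within groups. They took between 6.69% and 8.99% of reads in control microglia and between 5.19% and 11% in other brain cells. Mitochondrial genes under other names are not in these shares, and AC024175.4 was not counted. Of 138 chromatin and DNA methylation enzymes, 4 (2.9%) were called higher and 21 (15.2%) lower, both below the 15.1% and 20.2% over all genes tested, and 113 were not called. 1 was higher and 7 lower with control sample 1 left out, 1 and 6 with control sample 5 left out, and 2 and 15 with other brain cell sample 2 left out. mbd2, a reader of methylated DNA, was higher at 26.6 and 35.4 against 2.78, 1.74 and 4.47, chd5, a chromatin remodeller of neurons, was lower at 4.4 and 2.81 against 39.3, 38.4 and 48.2, and the abundant hmgn2 and hmgb2a were not called. Endosome, autophagy and vesicle traffic had 17 of 153 members (11.1%) higher and 29 (19%) lower, against 15.1% and 20.2% over all genes tested, and its median difference of 0.05 changed side of the median of all genes under another scaling. 7 were higher and 17 lower with control sample 1 left out, 7 and 18 with control sample 5 left out, and 9 and 23 with other brain cell sample 2 left out. The genes ehd4, at 211 and 273 against 2.52, 4.34 and 3.82, and stx11a, at 108 and 94.3 against 2.9, 3.15 and 2.46, were higher. The synaptic vesicle fusion genes snap25a and snap25b were lower, with snap25a at 40.2 and 48.8 against 648, 978 and 1038. cd63, a marker of late endosomes, was not called, at 771 and 1143 against 548, 635 and 240.4.

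Markers of other cell types were measured beside these groups. Over all genes tested, 15.1% were called higher and 20.2% lower. Summed signal of 20 oligodendrocyte markers was 2357 and 1283 in control microglia and between 26768 and 47823 in other brain cells, and 16 of the 20 were called lower. That of 27 neuronal markers was 266 and 276 against 3294 to 6062, with 24 lower, and that of 23 radial glia and astrocyte markers was 4214 and 5184 against 12267 to 19068, with 20 lower. The sum of the radial glia list does not describe its typical member. The median member stood at 7.5% of its mean in other brain cells in control sample 1 and at 5.36% in control sample 5. Of 26 markers of border and other tissue macrophages, 18 (69.2%) were called higher and 1 (3.8%) lower, with a median difference of 4.67. Their sums were 6804 and 6916 against 231 to 609. mrc1b, marco and stab1 were among the higher ones, lyve1a and lyve1b were not called, and timd4, a receptor of resident macrophages in mammals, was lower, at 12.6 and 20.6 against 208, 239.8 and 112. Of 17 dendritic cell markers, 9 were higher and 3 lower, with sums of 17588 and 16080 against 372 to 515, and cd74a alone made up most of that sum. flt3 read 69.8 and 60.0 in control microglia and 1.5, 7.04 and 1.95 in other brain cells, and batf3 read 19.7 and 28.7 in control microglia and 1.75, 4.66 and 1.3 in other brain cells, a call lost without control sample 5. The lowest of the dendritic cell markers, at a difference of -3.54, was ccr7, given above among the chemokine receptors. Of 16 B cell markers, 10 were higher and 1 lower, with sums of 814 and 630 against 189 to 236, and some of them, such as syk and btk, are also used by myeloid cells. The immunoglobulin gene ighz read 48.6 and 15.7 in control microglia and 1.12, 1.09 and 0.295 in other brain cells, and cd79b read 30.5 and 10.1 in control microglia and 0.606, 0.223 and 0.655 in other brain cells, both higher in control sample 1 than in control sample 5. The B cell factor pax5 had at most 3 reads in each control library, at 0.687 and 0.375 against 2.52, 1.52 and 1.95. Of 14 neutrophil markers, 5 (35.7%) were higher and 2 (14.3%) lower, against 15.1% and 20.2% over all genes tested. Their sums were higher in control microglia, at 756 and 769 against 155 to 288, and the largest difference was 5.93. Other members were low in control microglia, with mpx at 0.841 and 1.59 against 6.09, 2.06 and 8.14. The lower lyz read 0.687 and 0.68 against 55.6, 58.6 and 7.78, a call lost without either control library. T cell and natural killer cell markers were called higher in 1 of 25 and lower in 10, and were lower in 3 without control sample 1 and in 4 without control sample 5. Endothelial and mural cell markers summed to 516 and 425 in control microglia and to between 385 and 410 in other brain cells. Of the 28, 3 (10.7%) were higher, 9 (32.1%) lower and 4 at 0 reads in both control libraries. Fewer were called lower when either control sample was left out. Here too the sum does not describe the typical member. The median member stood at 30.6% of its mean in other brain cells in control sample 1 and at 47% in control sample 5. Ependymal markers summed to 26.2 and 24.9 against 125 to 142, and meningeal and fibroblast markers to 83.3 and 57.3 against 304 to 556. Red cell markers summed to 360 and 82.3 in control microglia and to between 1251 and 2575 in other brain cells. The part of these cell types in the differences above was not tested.

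**Figure D5:**
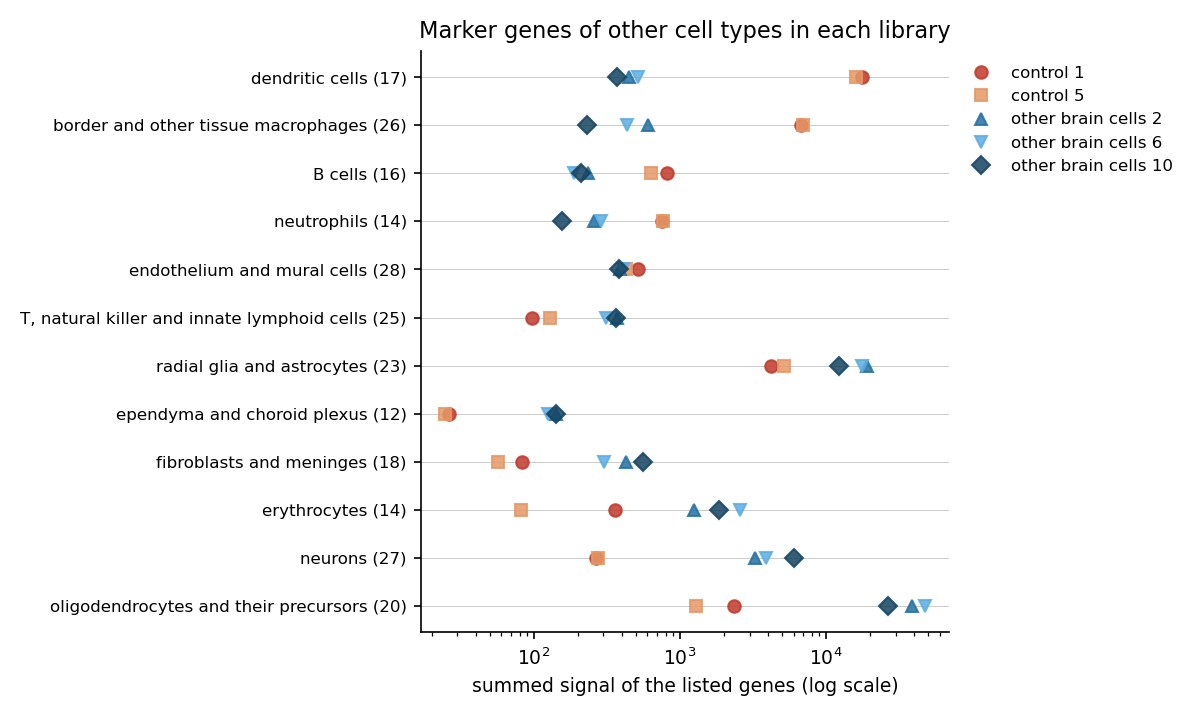
Summed signal of marker genes of 12 other cell types in each of the 5 libraries (x axis, log scale), with the number of genes after each name, red and orange symbols for control microglia and blue symbols for other brain cells. Oligodendrocyte sums lie at 2357 and 1283 in control microglia against 26768 or more in other brain cells, dendritic cell and border macrophage sums lie higher in control microglia, and erythrocyte sums differ between the 2 controls, at 360 and 82.3.

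The 2 control libraries were close in most genes. Among 6381 genes with a mean signal of at least 20, the median distance between control microglia 1 and 5 was 0.306 log2 units, and 432 genes (6.77%) lay more than 1 unit apart, 162 of them higher in sample 1 and 270 higher in sample 5. The 5 largest gaps were those of the chemokine genes ccl34a.3 and ccl34b.8, the keratins krt15 and krt5, and the integrin itga6b. ccl34a.3 read 3.16 and 203 in control microglia and 0.223, 0.331 and 0.871 in other brain cells, and ccl34b.8 read 4.55 and 95.7 in control microglia and 0.223, 2.28 and 0.295 in other brain cells. Both were called higher. The call of ccl34a.3 was lost without any of the other brain cell samples, and that of ccl34b.8 without control sample 5, other brain cell sample 2 or other brain cell sample 10. krt15 read 47.5 and 0.223 in control microglia and 283, 0.764 and 2.24 in other brain cells, and krt5 read 90.9 and 6.62 in control microglia and 640.1, 9.86 and 7.21 in other brain cells. Keratins, which belong to epithelia, were high in control sample 1 and in other brain cell sample 2 and low in the other 3 libraries, and neither keratin was called.

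Genes known only by a clone or library name made up 35.1% of those called higher (1147 genes), 14.2% of those called lower (621) and 27.5% of those not called. The reference table at hand gives a gene symbol to 132 of the 1147. The following were chosen after their values were seen. si:ch211-160d14.12, with no symbol, had the largest difference of all of them, and read 2153 and 3820 in control microglia and 2.78, 7.04 and 1.38 in other brain cells. si:dkey-126g1.7, given there as nlrp12l, an NLR-family gene, read 511 and 402 in control microglia and 1.37, 0.44 and 0.655 in other brain cells. wu:fd58b11, given as mhc2d4b, and si:zfos-2070c2.4, given as mhc2daa, are MHC class II genes and read 459 and 512 against 1.5, 0.764 and 1.38 and 6179 and 6991 against 72.1, 78.1 and 48.5. zgc:92326, given as the galectin lgals9l3, read 1472 and 2187 in control microglia and 9.54, 21.3 and 7.71 in other brain cells. zgc:55621, given as the lysosomal thioesterase gene ppt2a.2, read 256 and 243 in control microglia and 0.989, 3.69 and 0.871 in other brain cells. None of these 6 genes exceeded 78.1 in any other brain cell library.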

How the data were processed

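RNA was measured by sequencing single-end libraries, made with SMARTer Ultra Low Input and TruSeq chemistry per the labels' protocols. Genome build GRCz10, TopHat2 2.0.5, edgeR and SAMtools 0.1.18 are listed in the submitters' processing notes. The counting tool, annotation and strand setting are not given in the sources used here, so reads of antisense or overlapping genes cannot be told apart. The deposited table holds a signal, a read coverage per gene scaled by the authors, which is not a plain CPM. The lowest value, 0.223, stands for 0 reads, and above it 100% of the values of each library were whole multiples of the value of 1 read, to within 0.05 reads, so reads could be recovered. The authors' deposited log2 fold changes and the authors' deposited FDR (adjusted p-values) were not printed here.

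Genes that reached a value of 1 in 2 or more of the 9 distinct libraries (21714 of 21756) were fitted as log2(value + 1) with limma 3.58.1 in R 4.3.3 (lmFit, eBayes with trend, two-sided, Benjamini-Hochberg over all genes, calls at an adjusted p under 0.05), on the 5 libraries alone. Pairs were genes whose names end in a and b. Scripts were tested on simulated data. Control sample 9, whose column is identical to that of a 24 h sample, was left out, and its use as a control was tried as an alternative. Other alternatives were the pseudocount, filter, scaling, limma-voom on recovered reads, a block, a stricter threshold and leaving out each library. Members and lists were chosen with earlier results of these data known. The genes named were fixed by rule: 5 markers, ranks 11 to 30 by difference, up to 4 called members in each direction and up to 3 not called per list or family, 10 opposite pairs, 10 floor genes each way, the 10 largest read shares, the 5 largest gaps between controls and the 5 most abundant genes not called. Any gene named outside it was chosen after its values were seen. Promoter motifs were not analysed here. One of the gene lists is not reported here. Python 3.11.15 with pandas 2.3.3, numpy 2.4.6 and, for plots, matplotlib 3.10.9 was used.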

Additional observations from a re-analysis of the deposited data

How the results depend on the processing

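Counts of genes called higher and lower stayed within 1.5 times of 3269 and 4379 under another pseudocount, filter, scaling, the count model, the block and the use of control sample 9, and the fits that left out 1 library ranged from 1993 to 3243 higher and from 1994 to 4922 lower. With the threshold at 0.01, 2172 genes were called higher, 2671 lower and 435 pairs in place of 684. Leaving out 1 library gave between 457 and 645 pairs. Pairs called in opposite directions, 84 as reported, numbered 44 at the threshold of 0.01 and between 32 and 90 when 1 library was left out. limma-voom on the recovered reads called 3125 genes higher and 3626 lower and 482 pairs. Under quantile normalization the median over all genes was 0.06 in place of -0.14, and the fit called 3557 higher and 3428 lower. Of the 220 called genes named in the text, 206 kept their call in every setting in which they were tested and 14 lost it in at least 1, and none changed direction. The 14 are tmsb4x, ccl34a.3, ccl34b.8, cry5, nr1d1, nfil3-6, tefa, sarm1, grapb, scn4ba, lyz, batf3, olfml3a and p2ry13. The rules for naming genes favoured large differences, so the 206 of 220 do not describe called genes in general. Of the 27 lists described, endosome, autophagy and vesicle traffic was the 1 whose median changed side of the median of all genes under a scaling. The groups share no replicate numbers in the labels, and consecutive sample numbers taken as a block, in which 2 control libraries have a partner, called 3697 genes higher and 4817 lower. The group of 2 control libraries limits precision, and genes at or below 3 reads have folds set mainly by the pseudocount.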
